A study of Mus musculus with 8 samples.

Results

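Glycolysis and lactate export in cultured astrocytes were described through 10 genes, chosen by symbol and listed in the count table as SLC2A1, HK1, HK2, PFKP, PFKFB3, ALDOC, LDHA, LDHB, SLC16A1 and SLC16A3. They are written below as mouse symbols. All 10 were present among the 13937 genes of the table and all 10 were among the 13509 genes with enough reads to be tested. The libraries were bulk RNA sequencing of primary astrocytes from the brains of C57BL/6 pups aged 1 day, either WT or lacking RGC-32 (RGC-32 KO, or KO for short), the protein made by the gene Rgcc, which acts downstream of TGF-β. Cultures were grown in serum, shaken to remove loosely attached cells, and starved of serum overnight before stimulation. In each genotype, cultures were left untreated (control) or received TGF-β at 10 ng/ml for 24 h (treated), which gave 4 groups of 2 biological replicates and 8 libraries in all. The sources do not say whether the replicates came from separate litters, so the p-values measure the spread between these libraries only.

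Astrocytes take up glucose through GLUT1 and break it down to pyruvate in the cytosol. Lactate dehydrogenase interconverts pyruvate and lactate, and monocarboxylate transporters carry lactate across the cell membrane. In the brain, astrocytes are known as glycolytic cells that keep glycogen and release lactate, which neurons can oxidise. Several of the steps are served by paired isoforms with different kinetics. Hexokinase 1 is the housekeeping form and hexokinase 2 the inducible form. The LDHA subunit favours the formation of lactate and the LDHB subunit its oxidation to pyruvate. MCT1, encoded by Slc16a1, has a higher affinity for lactate than MCT4, encoded by Slc16a3, which is known for lactate export from glycolytic cells.

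Total counts on genes were 14920561 to 18956038 per library. Counts of Rgcc were 80 and 94 in untreated WT, 215 and 362 in treated WT, 61 and 28 in untreated KO, and 64 and 26 in treated KO libraries, so that every KO library lay below every WT library while reads on the gene remained. Of 10 astrocyte markers all were detected, led by Gfap at 1196 to 2650 CPM (counts scaled to 1e+06 of the normalised library total) and Aqp4 at 690.4 to 1104 CPM. Microglial markers were present too, and the 12 of them summed to 1435 to 1878 CPM in the libraries. The values are those of whole cultures, in which fewer cells of a type and less RNA per cell cannot be told apart.

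The regions just before the start sites are shown for the genes whose values carry the results below, both members of the lactate dehydrogenase pair, Hk2 and Slc16a1. Each is the 250 bases before a start in RefSeq (GRCm38.p6), written 5′ to 3′ on the strand of the gene, and capitals mark ACGTG or GCGTG on either strand, the core letters of the site bound by hypoxia-inducible factors. The palindrome CACGTG, an E-box, contains this core on both strands and then counts as 2 matches. The Hk2 window was chr6:82774455-82774704 on the minus strand, the Ldha window chr7:46845554-46845803 on the plus strand, the Ldhb window chr6:142507958-142508207 on the minus strand and the Slc16a1 window chr3:104638414-104638663 on the plus strand.
Hk2: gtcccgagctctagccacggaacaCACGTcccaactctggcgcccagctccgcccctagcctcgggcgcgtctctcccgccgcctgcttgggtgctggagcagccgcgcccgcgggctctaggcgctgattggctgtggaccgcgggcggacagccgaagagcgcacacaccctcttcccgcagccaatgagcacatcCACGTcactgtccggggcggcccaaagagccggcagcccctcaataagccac
Ldha: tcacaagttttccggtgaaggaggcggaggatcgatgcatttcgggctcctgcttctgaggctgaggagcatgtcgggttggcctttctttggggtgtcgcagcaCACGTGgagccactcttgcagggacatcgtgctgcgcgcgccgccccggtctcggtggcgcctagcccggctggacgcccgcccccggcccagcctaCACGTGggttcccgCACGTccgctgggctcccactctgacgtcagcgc
Ldhb: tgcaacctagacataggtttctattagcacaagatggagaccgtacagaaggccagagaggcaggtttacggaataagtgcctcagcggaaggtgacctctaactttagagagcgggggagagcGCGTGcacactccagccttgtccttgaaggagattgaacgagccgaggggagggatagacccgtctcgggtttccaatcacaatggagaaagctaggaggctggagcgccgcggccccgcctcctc
Slc16a1: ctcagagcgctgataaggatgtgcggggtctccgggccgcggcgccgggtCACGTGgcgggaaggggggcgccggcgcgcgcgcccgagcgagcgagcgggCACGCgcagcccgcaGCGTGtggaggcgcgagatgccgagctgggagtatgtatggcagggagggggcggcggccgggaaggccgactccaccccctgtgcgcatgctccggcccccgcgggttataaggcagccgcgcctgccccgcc

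The Hk2 window held 2 matches, the Ldha window shown 5, the Ldhb window 1 and the Slc16a1 window 4. The start behind this Ldha window was not matched to a GENCODE transcript. A further Ldha start, whose window at chr7:46846832-46847081 held 1 match, was in one. RefSeq gave 14 starts for the 10 genes, and 13 of the 14 windows held the core, against 38.6% of all 32851 windows of the same length. The exception was the outer start of Hk1. GC content of the 14 windows ran from 49.6% to 76.4%, and its part in this share was not tested. CAGAC, the core letters of a SMAD site, was present on either strand in 3 of the 14 windows, those of Slc2a1, Slc16a3 and the outer start of Hk1, against 42.2% of all windows. These matches are letters in a window and not measured binding.

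Levels of different genes were compared as FPKM, in which fragments are divided by the length of the transcript and the size of the library, from the authors' Cufflinks table. In WT control astrocytes the lactate dehydrogenases stood far above the rest, with Ldhb at 301 and 302.5 FPKM and Ldha at 202 and 220.4 FPKM. Slc16a1 at 54.9 and 61.8 FPKM, Aldoc at 48.8 and 65.2 FPKM and Pfkp at 46.2 and 56.4 FPKM came next, and the libraries of these 3 genes overlapped. Slc2a1 followed at 39.1 and 42.3 FPKM, Hk1 at 25.9 and 26.4 FPKM, and Pfkfb3 at 18.5 and 20.5 FPKM. The lowest levels were those of Slc16a3 at 8.46 and 10.9 FPKM and Hk2 at 4.51 and 5.04 FPKM. From Slc2a1 downwards no neighbours in this order overlapped in untreated WT.

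**Figure D1:**
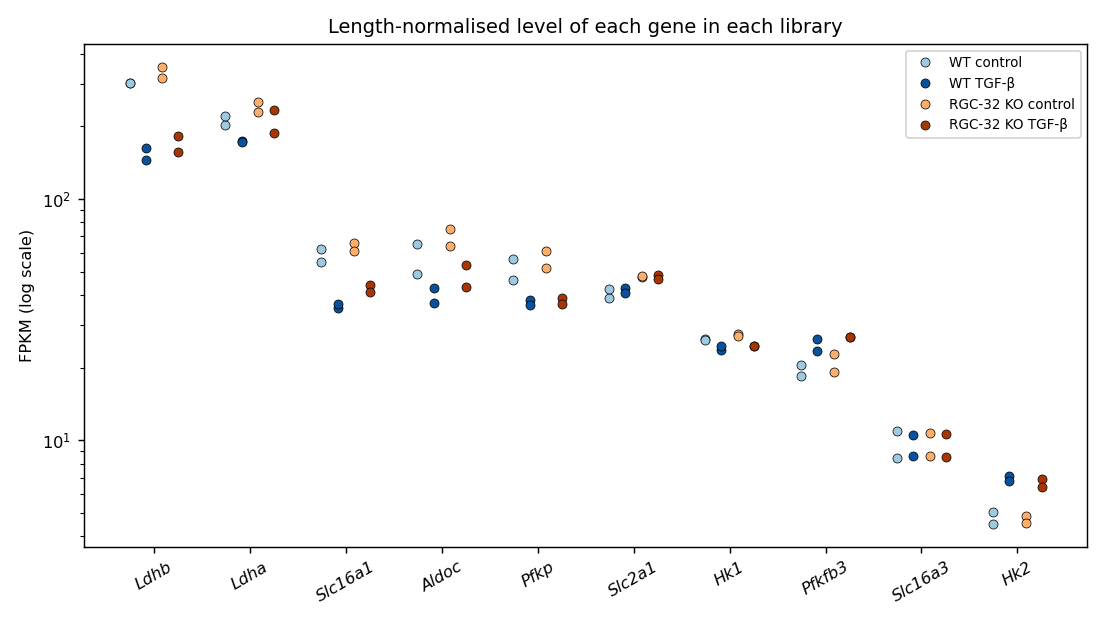
Length-normalised level (FPKM, log axis) of the 10 genes in each of the 8 libraries, ordered by the mean in untreated WT. Each point is a library, and the 2 points of a colour are the replicates of a group. Ldhb lay above Ldha in the control libraries and below it in the TGF-β libraries, and Hk2 and Slc16a3 lay lowest in every group.

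The effect of TGF-β was asked within each genotype. A gene was called when its log2 fold change was at least 0.6 in size with an adjusted p under 0.05 (edgeR quasi-likelihood test, Benjamini-Hochberg adjustment over 13509 genes). In WT astrocytes Hk2 rose and Ldhb fell by this rule, which made 1 of 10 genes up and 1 of 10 down, where 7.72% of all genes tested were called up and 5.65% down. In KO astrocytes Hk2 and Ldhb again were the genes called, 1 up and 1 down, against 6.61% and 4.93% of all genes. By the adjusted p alone, 2 of 10 rose and 4 of 10 fell in WT, where 18.6% and 14.3% of all genes did. In KO 2 rose and 3 fell, against 16.6% and 11.8%. The median log2 fold change of the 10 genes was -0.06 in WT and -0.03 in KO, beside -0.01 and 0.00 over all genes. The medians lay near 0 while single genes moved in opposite directions or did not pass. Between the genotypes, which share no library in this comparison, 5 of the 10 genes passed the adjusted p in both with the same sign, where 23% of all genes tested did.

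**Figure D2:**
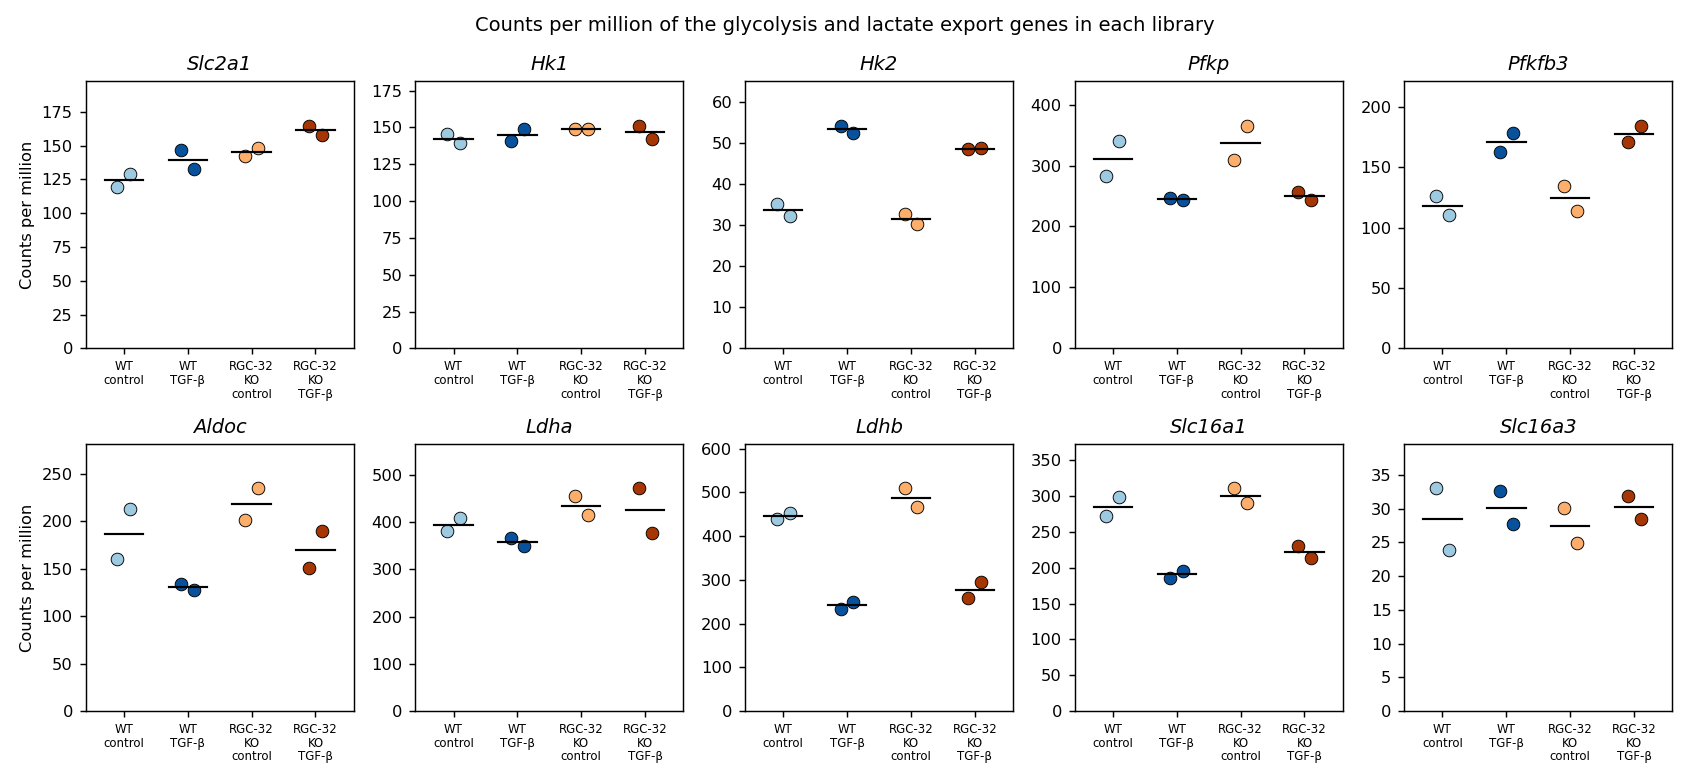
CPM of each of the 10 genes by group, with a point per library and a line at the mean of the 2 replicates; each vertical axis starts at 0. Ldhb, Slc16a1 and Pfkp were lower and Hk2 and Pfkfb3 higher in all 4 TGF-β libraries than in all 4 controls.

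The transcript of the glucose transporter did not pass the test. Slc2a1 encodes GLUT1, the glucose transporter of astrocytes and of the blood-brain barrier. It measured 119.5 and 129 CPM in untreated WT, 147 and 133 CPM in treated WT, 142.5 and 148 CPM in untreated KO, and 165 and 158 CPM in treated KO. TGF-β libraries lay above the controls within each genotype without overlap, at log2 0.17 ± 0.07 (SE) in WT and 0.15 ± 0.07 in KO, and the adjusted p values of 0.0996 and 0.143 missed the threshold. The KO value was -0.013 in the FPKM values. Without strand information, reads of Slc2a1 cannot be told from those of Gm12868, an antisense gene that shares 105 exon bases with it.

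The hexokinases, which phosphorylate glucose and so hold it in the cell, differed, in that Hk2 rose and Hk1 did not pass. Hk1 measured 145 and 139.5 CPM in untreated WT and 141 and 149 CPM in treated WT, and 149 and 149 CPM in untreated KO and 151 and 142 CPM in treated KO. The groups overlapped within each genotype, with log2 fold changes of 0.02 (95% confidence interval -0.11 to 0.16) and -0.02 (-0.15 to 0.12). Hk1 shares 157 exon bases with Hk1os, which is antisense to it. Hk2 measured 35.3 and 32.3 CPM in untreated WT and 54.3 and 52.6 CPM in treated WT. In KO it measured 32.7 and 30.4 CPM in control and 48.6 and 48.8 CPM with TGF-β. All 4 TGF-β libraries stood above all 4 controls. The increase was 1.58-fold in WT (log2 0.66 ± 0.07, SE; adjusted p = 0.000544) and 1.54-fold in KO (log2 0.63 ± 0.07; adjusted p = 0.000836). The adjusted p of Hk2 stayed below 0.01 in each alternative run, but its fold lay close to the threshold of 0.6 and missed it without WT control replicate 2 (0.58), without KO control replicate 2 (0.57), with upper quartile scaling (0.58 and 0.54) and in the FPKM values (0.47 and 0.43).

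At the phosphofructokinase step the transcripts of an isoform, Pfkp, and of the maker of the enzyme's activator moved in opposite directions. The other isoform genes, Pfkl and Pfkm, stood at means of 127 and 159.6 CPM in untreated WT and did not pass in either genotype. Their log2 fold changes were 0.23 in WT and 0.20 in KO for Pfkl, and -0.07 and -0.04 for Pfkm. Pfkp encodes the platelet type phosphofructokinase, which commits sugar to glycolysis. It measured 282 and 340.4 CPM in untreated WT and 246 and 244 CPM in treated WT, and 309 and 366 CPM in untreated KO and 256 and 244 CPM in treated KO. Every TGF-β library lay below every control, and Pfkp fell, with a log2 change of -0.35 ± 0.11 (SE) in WT cultures, adjusted p = 0.0406, and of -0.43 ± 0.11 in KO, adjusted p = 0.0203. Leaving out WT control replicate 2 took the WT change to -0.22 (adjusted p = 0.18), and leaving out either treated WT library gave adjusted p values of 0.123 and 0.134. In KO the adjusted p was 0.106 without control replicate 2, and 0.0721 and 0.100 without TGF-β replicates 1 and 2. Pfkp shares 748 exon bases with Pitrm1 on the opposite strand, so its counts may include reads of that gene.

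Pfkfb3 encodes the enzyme that makes fructose 2,6-bisphosphate, the allosteric activator of phosphofructokinase. Its counts were 126 and 111 CPM in untreated WT and 163 and 178 CPM in treated WT. They were 135 and 114 CPM in untreated KO and 171 and 185 CPM in treated KO. No TGF-β library overlapped a control. Pfkfb3 rose 1.44-fold in WT (log2 0.53 ± 0.10, SE; adjusted p = 0.00600) and 1.43-fold in KO (log2 0.52 ± 0.10; adjusted p = 0.00792), short of the fold threshold in both. The adjusted p passed 0.05 without WT treated replicate 2 (0.0508) and without KO treated replicate 2 (0.0650).

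Aldoc, the brain aldolase and a widely used astrocyte gene, measured 161 and 212 CPM in untreated WT and 133.5 and 127 CPM in treated WT. The WT groups did not overlap, and Aldoc fell, with a log2 change of -0.52 ± 0.15 (SE; adjusted p = 0.0349). In KO it measured 202 and 235 CPM in control and 150.3 and 189.9 CPM with TGF-β, a log2 change of -0.36 ± 0.15 that did not pass (adjusted p = 0.115). This SE was the largest of the 10 genes after that of Slc16a3. Its WT change was -0.32 (adjusted p = 0.163) without control replicate 2, and its adjusted p was 0.102 and 0.143 without TGF-β replicates 1 and 2.

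Lactate dehydrogenase showed the largest change of the set. Ldhb measured 439.5 and 452.5 CPM in untreated WT and 234 and 250.3 CPM in treated WT. In KO it measured 509 and 466.5 CPM in control and 258 and 294 CPM with TGF-β. All 4 TGF-β libraries lay well below all 4 controls. Ldhb was 1.84-fold lower in WT (log2 -0.88 ± 0.08, SE; adjusted p = 0.000356) and 1.77-fold lower in KO (log2 -0.82 ± 0.08; adjusted p = 0.000569), and it kept its call in each alternative run. Ldha, its partner, measured 382 and 407.5 CPM in untreated WT and 366 and 349 CPM in treated WT, and 455 and 414 CPM in untreated KO and 471 and 378 CPM in treated KO. The WT libraries were lower with TGF-β by a small margin and the KO libraries overlapped. The log2 fold change of Ldha was -0.14 in WT (95% confidence interval -0.39 to 0.11; adjusted p = 0.343) and -0.03 in KO (-0.28 to 0.21; adjusted p = 0.839). GENCODE M21 holds 2 pseudogenes named after Ldha, and how reads shared with them were counted is not given in the sources used here.

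Of the lactate transporters Slc16a1 fell and Slc16a3 did not pass. Slc16a1, encoding MCT1, measured 272 and 299 CPM in untreated WT and 186 and 195 CPM in treated WT, and 311 and 290.1 CPM in untreated KO and 230.1 and 214 CPM in treated KO. TGF-β libraries lay below controls throughout. Slc16a1 fell, with a log2 change of -0.58 ± 0.07 (SE) in WT cultures, adjusted p = 0.00112, and of -0.44 ± 0.07 in KO, adjusted p = 0.00449. It stayed just short of the fold threshold in WT, which it passed with upper quartile scaling (-0.67), in the FPKM values (-0.68), in a fit to the 4 WT libraries alone (-0.60), and without WT control replicate 1 (-0.65) or WT treated replicate 2 (-0.63). Slc16a3, encoding MCT4, measured 33.0 and 23.9 CPM in untreated WT and 32.6 and 27.8 CPM in treated WT, and 30.1 and 24.9 CPM in untreated KO and 31.9 and 28.5 CPM in treated KO. Its groups overlapped, with log2 fold changes of 0.09 (95% confidence interval -0.29 to 0.47) and 0.14 (-0.24 to 0.52), and both intervals include 0.

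**Figure D3:**
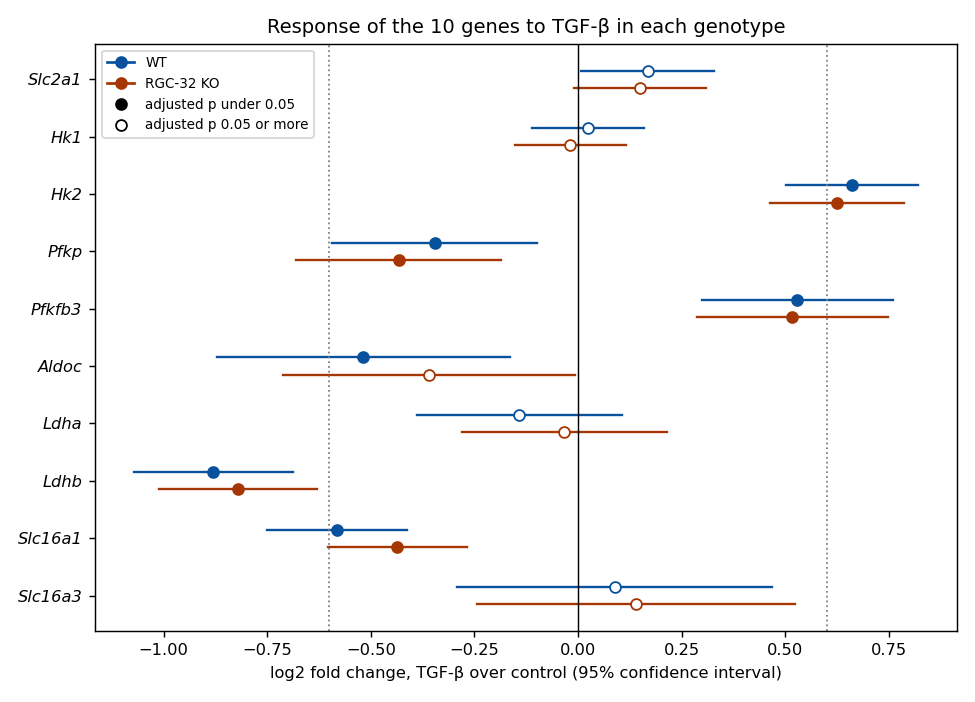
log2 fold change of TGF-β over control for the 10 genes in WT and KO astrocytes, with 95% confidence intervals from the edgeR fit. Filled points passed an adjusted p of 0.05 and dotted lines mark the fold threshold of 0.6; Hk2 and Ldhb lay beyond it in both genotypes.

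The balance within each isoform pair was read as the log2 ratio of the read counts of the 2 genes in the same library, which needs no scaling between libraries. The ratio of Ldha to Ldhb was -0.20 and -0.15 in untreated WT, 0.64 and 0.48 in treated WT, -0.16 and -0.17 in untreated KO, and 0.87 and 0.36 in treated KO. Every control was below 0 and every TGF-β library above it. The mean difference was 0.76, from -0.17 ± 0.02 (SD, n = 4 control libraries) to 0.59 ± 0.22 (SD, n = 4 TGF-β libraries). Per length the turn was the same, since the Ldha to Ldhb ratio of FPKM was 0.672 to 0.729 in the controls and 1.03 to 1.49 with TGF-β.

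The ratio of Hk1 to Hk2 fell from 2.16 ± 0.11 (SD, n = 4) to 1.51 ± 0.11 (n = 4), a difference of -0.64, and Hk1 remained the more abundant form with 3.31 to 3.83 times the FPKM of Hk2 in the TGF-β libraries against 5.24 to 5.91 times in the controls. The ratio of Slc16a1 to Slc16a3 fell from 3.40 ± 0.27 (SD, n = 4) to 2.77 ± 0.18 (n = 4), a difference of -0.63. In none of the pairs did a TGF-β library overlap a control. By exact permutation of 4 TGF-β against 4 control libraries, each of the 3 differences had a two-sided p of 0.0286. This is the smallest that the 70 arrangements allow, and the value was the same after adjustment over the 3 pairs. The arrangements moved libraries across genotypes, because within a genotype no permutation p can fall under 0.05. The p therefore ignores that the treatment was given within each genotype. Within a genotype the differences were 0.74 in WT and 0.78 in KO for Ldha to Ldhb, -0.64 and -0.65 for Hk1 to Hk2, and -0.68 and -0.58 for Slc16a1 to Slc16a3.

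**Figure D4:**
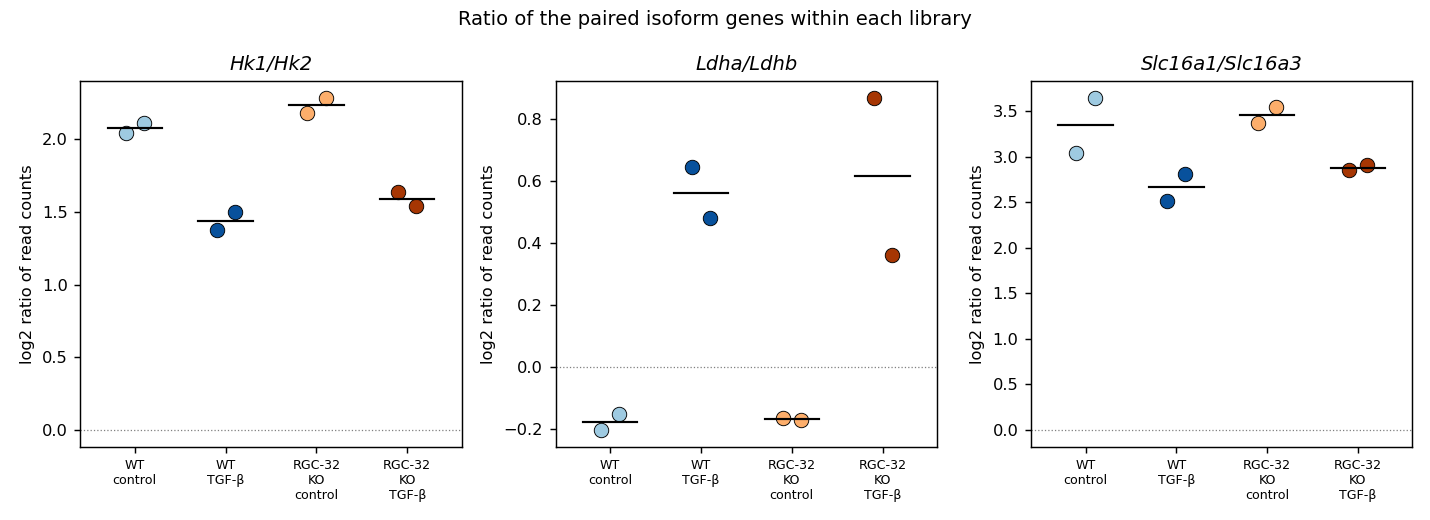
log2 ratio of the read counts of the 2 genes of each isoform pair within each library, by group, with a point per library and a line at the mean of the 2 replicates. The Ldha to Ldhb ratio lay below 0 in all 4 controls and above 0 in all 4 TGF-β libraries, while the other ratios were lower with TGF-β.

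Most other genes of the pathway did not pass. Of 25 further glycolysis genes 20 were tested, and 1 was called in each genotype, Bpgm, which makes 2,3-bisphosphoglycerate. It rose by 0.61 ± 0.14 (log2, SE; adjusted p = 0.0136) in WT and by 0.81 ± 0.14 in KO (adjusted p = 0.00534). By the adjusted p alone 4 of the 20 rose and 1 fell in each genotype. The 4 were Bpgm, the neuronal type glucose transporter Slc2a3 (0.42 and 0.48 in WT and KO), the ADP-dependent glucokinase Adpgk (0.54 and 0.51) and the phosphoglycerate mutase Pgam1 (0.22 and 0.34), and the gene that fell was the neuronal enolase Eno2 (-0.53 and -0.60). The abundant enzymes of the trunk did not pass. Gapdh had log2 fold changes of 0.03 and 0.10, Pkm, the pyruvate kinase, 0.09 and 0.14, and Aldoa, the ubiquitous aldolase, -0.18 and -0.13. Bsg, the chaperone that carries MCT1 and MCT4 to the membrane, had values of -0.05 and 0.03. The median of the 20 genes was -0.06 in WT and -0.01 in KO.

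Of the genes of pyruvate entry to mitochondria, those that passed the test all fell. Of 13 tested, 5 fell in WT and 3 in KO by the adjusted p and none rose. Pcx, the pyruvate carboxylase that astrocytes use to replenish the citric acid cycle, was called in both, at -0.90 ± 0.12 (log2, SE; adjusted p = 0.00135) in WT and -0.97 ± 0.12 in KO (adjusted p = 0.00124). Pdk2, a kinase that inhibits pyruvate dehydrogenase, fell by 0.61 in WT (adjusted p = 0.000486), where it was called, and by 0.54 in KO (adjusted p = 0.000961). Pdp1, the phosphatase that reverses this inhibition, fell too, by 0.52 and 0.49. The mitochondrial pyruvate carrier Mpc2 and the kinase Pdk4 fell in WT, by 0.29 and 0.50, and did not pass in KO. The median of the list was -0.17 in WT and -0.16 in KO.

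**Figure D5:**
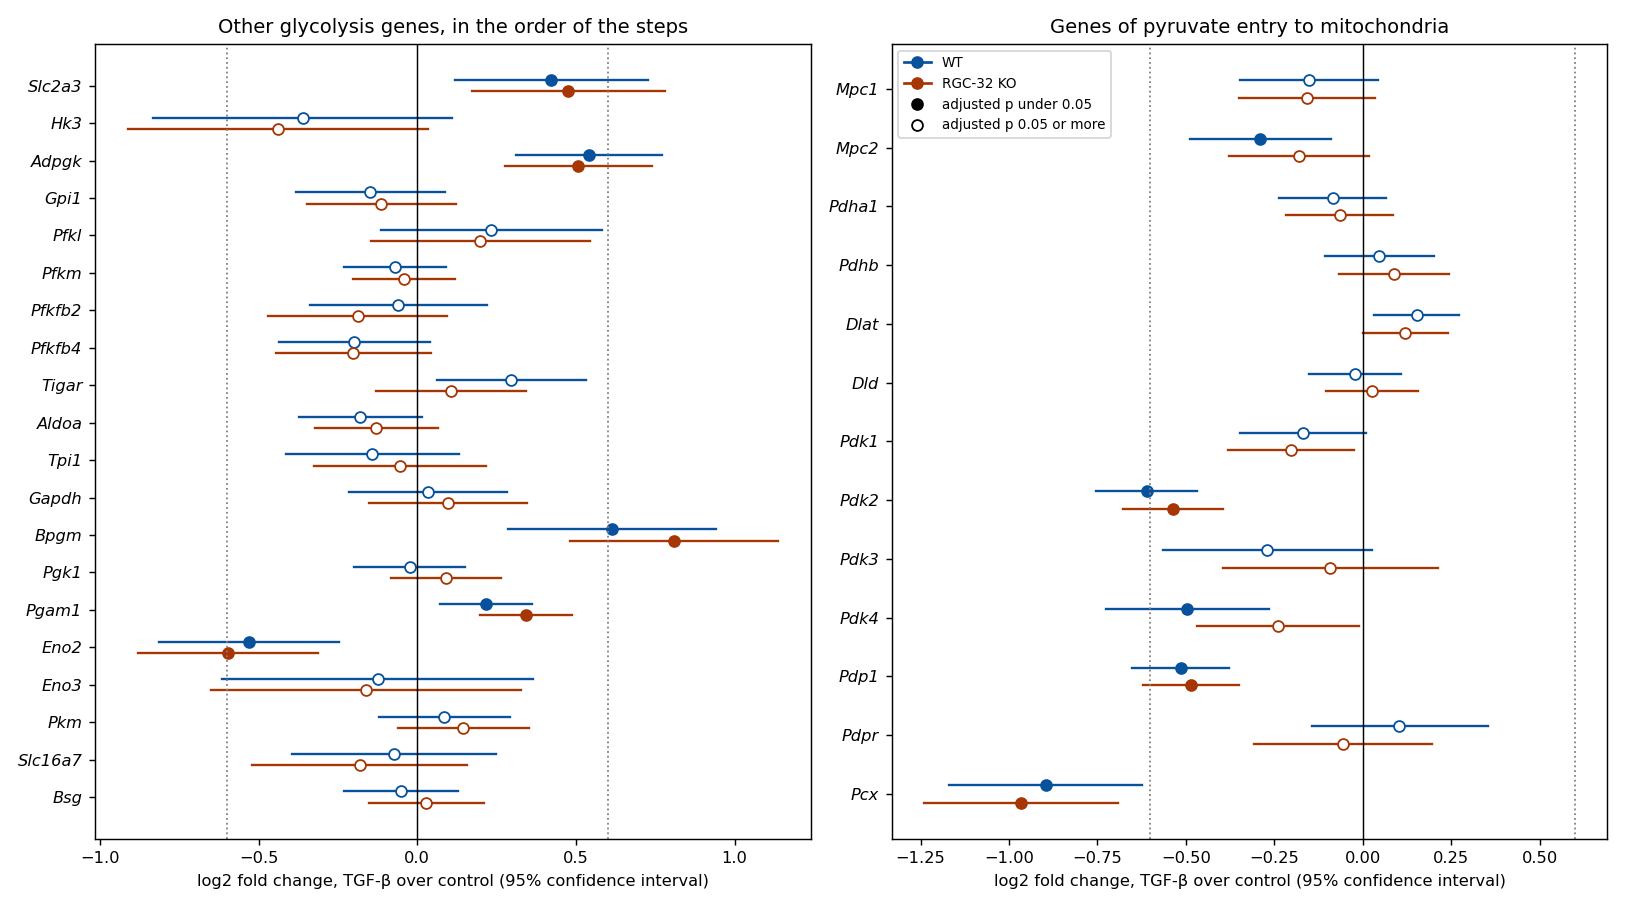
log2 fold change of TGF-β over control with 95% confidence intervals for 20 other glycolysis genes in the order of the steps (left) and 13 genes of pyruvate entry to mitochondria (right), in both genotypes. Filled points passed an adjusted p of 0.05 and dotted lines mark a fold of 0.6; Bpgm and Pcx lay beyond it in both genotypes.

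Among 20 genes of hypoxia-inducible factors, their regulators and other hypoxia genes, the calls went both ways, 2 up and 3 down in each genotype. Vegfa, encoding vascular endothelial growth factor, rose by 1.15 ± 0.08 in WT (log2, SE; adjusted p = 0.000124) and by 1.08 ± 0.08 in KO (adjusted p = 0.000188). P4ha1, a collagen prolyl hydroxylase, rose by 0.66 and 0.69. Egln3, a prolyl hydroxylase that marks the factors for breakdown, fell by 1.25 and 0.82, Ndrg1 by 0.94 and 0.85, and Adm, encoding adrenomedullin, by 0.83 and 0.66. Hif1a rose by 0.47 and 0.52 and Epas1, its relative HIF-2α, fell by 0.59 and 0.55, each short of the fold threshold with an adjusted p of at most 0.00394.

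Astrocyte markers moved with the treatment as well. By the adjusted p, 7 of 10 fell and 1 rose in each genotype. Aldh1l1, Aqp4, Slc1a2, Slc1a3, Sox9, Glul and Fabp7 fell, Gja1 rose, and Gfap and S100b did not pass. Fabp7, Slc1a2 and Glul were called in WT, with log2 fold changes of -0.72, -0.68 and -0.66, and Slc1a2 and Glul in KO, with -0.79 and -0.68. Summed over the 10 markers the level was 4628 to 4808 CPM in untreated WT, 3565 to 3672 CPM in treated WT, 5301 to 5923 CPM in untreated KO and 4354 to 4631 CPM in treated KO. The part of this in the falls of Ldhb, Slc16a1, Pfkp and Aldoc was not tested.

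Marker levels of other cells also moved. Ependymal markers summed to 375.8 to 440.4 CPM in untreated WT and 234 to 265 CPM in treated WT, and to 404 to 450.7 and 285 to 296 CPM in KO, and 6 of 6 tested fell by the adjusted p in each genotype. Those with the smallest adjusted p in WT were Cfap126, Pifo, Foxj1 and Rsph1, which fell by 0.79, 0.96, 0.68 and 0.71 (log2). Meninges had been removed before culture, and meningeal fibroblast markers summed to 1004 to 1199 and 702 to 729 CPM in WT and to 894 to 903 and 653.5 to 739 CPM in KO, with 5 and 2 of 7 tested falling. Ogn and Dcn, both encoding small proteoglycans of the matrix, were called in WT, at -0.85 and -0.62. For the oligodendrocyte lineage the sums rose from 226 to 234 CPM to 402 to 442 CPM in WT and from 241 to 270.3 CPM to 312 to 388 CPM in KO. This went with Cspg4, a gene that pericytes also express, at log2 3.13 and 2.69. Without Cspg4, left out after its values were seen, the sums were lower with TGF-β, at 187.7 to 208.9 CPM in untreated WT and 139.9 to 145.2 CPM in treated WT, and at 207.2 to 246.2 and 159.5 to 168.2 CPM in KO. Most of this remainder was Cnp, an enzyme of myelinating cells, at 126 and 151 CPM in untreated WT and 83.1 and 80.6 CPM in treated WT, and at 138 and 180.2 and then 92.1 and 95.4 CPM in KO. Cnp fell by 0.76 in each genotype and Pdgfra by 0.98 and 0.71. Of 12 microglial markers 1 rose in each genotype, Tmem119 by 0.99 and 0.68, and none fell. Endothelial markers summed to 99.4 to 124 CPM in untreated WT and 71.6 to 73.9 CPM in treated WT, and to 100.9 to 127 and 67.3 to 80.3 CPM in KO, without overlap in either genotype. Cdh5, encoding VE-cadherin, was the largest part of this sum, at 54.8 and 76.9 CPM in untreated WT, and fell by 1.09 and 0.85. Pecam1 had only 11 to 27 counts per library, and Cldn5, Emcn and Ly6c1 were not tested. Of the receptors for vascular endothelial growth factor, Flt1 rose by 1.13 and 0.63. Kdr fell by 0.50 in WT (adjusted p = 0.04875 by edgeR) and by 0.67 in KO, and was called in KO only. Neuron markers summed to 118 to 132 CPM in untreated WT and 123 to 139.5 CPM in treated WT, and to 100.6 to 137 and 131 to 133 CPM in KO, which overlap. Most of the neuron sum was Stmn2, at 92.9 and 105.3 CPM in untreated WT, and Rbfox3, Snap25 and Nefl were not tested. Tubb3, a neuronal tubulin, rose by 0.98 and 0.95, and Nefm, a neurofilament subunit, fell in KO by 1.72 and did not pass in WT. The part of these markers in the members' changes was not tested.

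The genotypes were compared without and with TGF-β, as WT against KO. None of the 10 genes passed the adjusted p (edgeR quasi-likelihood test) in either comparison, so none was called. Of all genes 0.037% and 0.0444% were called, by the fold threshold and the adjusted p together. None of the 10 was called by DESeq2 or limma-voom. The targeted gene Rgcc did not pass either. Without TGF-β it was higher in WT by 0.97 ± 0.53 (log2, SE, adjusted p = 0.780 by edgeR). With TGF-β it was higher by 2.54 ± 0.48 (adjusted p = 0.133 by edgeR). At an unadjusted p under 0.05 there was 1 of 10 without TGF-β, against 6.84% of all genes, and 4 of 10 with TGF-β, against 11.7%. Slc2a1 was the gene without TGF-β. It was lower in WT than in KO by 0.23 ± 0.07 (log2, SE; adjusted p = 0.5995 by edgeR). With TGF-β it was lower by 0.21 ± 0.07 (adjusted p = 0.320 by edgeR).

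The other 3 genes at that level with TGF-β were lower in WT too. Slc16a1 had a log2 difference of -0.22 (95% confidence interval -0.39 to -0.05), Aldoc of -0.38 (-0.74 to -0.03) and Ldha of -0.25 (-0.49 to 0.00). Their adjusted p values by edgeR were 0.316, 0.391 and 0.428. Of the 10 genes, 8 were lower in WT without TGF-β (7 to 9 over the alternatives) and 9 with TGF-β (7 to 9), by at most 0.385 on the log2 scale. With TGF-β the 9 included Slc16a3 (-0.001), Hk1 (-0.019) and Pfkp (-0.028), which lay near 0. The median over all genes was 0.007 without and 0 with TGF-β, and the share of all genes lower in WT was not counted. The summed astrocyte markers stood lower in WT in the same comparisons, and the median of the 10 was -0.16 and -0.19 (log2). Slc1a3 stood at -0.32 and -0.26 and Gfap, the most abundant, at -0.46 and -0.57 (adjusted p from 0.242 to 0.675 by edgeR). Not every marker was lower in WT. Without TGF-β Fabp7 and Gja1 were higher, by 0.13 and 0.02. With TGF-β Gja1 was higher, at a mean of 438 CPM in WT and 427 CPM in KO. The part of the astrocyte markers in the lower glycolytic genes was not tested.

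Whether the TGF-β response depended on RGC-32 was asked with the interaction of genotype and treatment. Of all genes 0% were called, by the fold threshold and the adjusted p together, and 2.82% had an unadjusted p under 0.05 (edgeR quasi-likelihood test). None of the 10 genes passed, at the adjusted or the unadjusted threshold, and none was called by DESeq2 or limma-voom. The smallest p was 0.193, for Slc16a1, whose response was more negative in WT, by a log2 difference of -0.15 (95% confidence interval -0.38 to 0.09). For Ldhb the difference between the responses was -0.06 (-0.33 to 0.21) and for Hk2 0.04 (-0.19 to 0.26). The widest intervals were those of Slc16a3, -0.59 to 0.49, and Aldoc, -0.66 to 0.34. These intervals are not adjusted for the number of genes and do not give the smallest difference that could be detected. What size of difference between genotypes 2 libraries a group could detect was not tested.

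The genes whose pattern over the 8 libraries was nearest to that of Ldhb and Hk2 were found among 13499 other genes, by the root mean square difference of log2 CPM after centring each gene. Nearest to Ldhb were Sord, the sorbitol dehydrogenase, at 0.06, Ttc25 at 0.06 and Ndrg1 at 0.07. Their log2 fold changes were -0.81, -0.79 and -0.94 in WT and -0.80, -0.71 and -0.85 in KO, beside -0.88 and -0.82 for Ldhb. Nearest to Hk2 were Srpr, a subunit of the signal recognition particle receptor, Etv6, an ETS family transcription factor, and Colgalt1, a collagen galactosyltransferase, each at 0.05, with log2 fold changes of 0.57 to 0.67.

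On GRCm38 (GENCODE M21) Hk2 lies on chromosome 6 at 82725025 to 82774454 and Ldhb on the same chromosome at 142490249 to 142507957, both on the minus strand. Ldha spans 46841475 to 46855627 on the plus strand of chromosome 7 and Slc16a1 104638668 to 104658462 on the plus strand of chromosome 3. Exons of these 4 genes overlap no other annotated gene.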

How the data were processed

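Per the labels and the authors' methods, reads of 8 unstranded libraries were aligned with STAR in the VIPER pipeline, and the processing notes name the mm10 build. The authors deposited raw read counts by gene symbol, and a table of FPKM values (Cufflinks) for 18644 genes. The counting program and annotation are not given in the sources used here. The deposited DESeq2 tables, which hold the authors' fold changes and p-values, were not used. Of the symbols, 21 had been turned into dates and were kept as they stood.

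Counts were fitted with edgeR 4.0.16 in R 4.3.3 (filterByExpr, TMM, quasi-likelihood, a mean per group, all 8 libraries, no block). P-values are two-sided with Benjamini-Hochberg adjustment over 13509 genes. SE was derived from the test statistic, and 2 was the prior count behind log2 CPM. The scripts were tested on simulated data. Replicates differed by more than counting noise (chi-square per degree of freedom 6.26 to 10.4), so total depth does not set the error. All members were named, and from each list the called genes, up to 4 per direction, apart from 1 gene not reported here, the astrocyte markers, and 3 nearest genes for Ldhb and Hk2. Gapdh, Pkm, Aldoa, Bsg, Hif1a, Epas1 and the other list genes outside this rule were named after their values were seen. The members and lists were chosen with earlier results of these data known. Alternatives were DESeq2 1.42.0, limma 3.58.1 (voom, or log2(FPKM + 1) for genes with a mean FPKM of at least 1), RLE or upper quartile scaling, no filter or a minimum of 10 counts per library, no fold threshold, the 4 libraries of a comparison, a replicate block, and leaving out each library.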

Additional observations from a re-analysis of the deposited data

How the results depend on the processing

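The counts of genes called moved with the fold threshold and the scaling. Without the fold threshold, 2 rose and 4 fell in WT, and 2 rose and 3 fell in KO. With upper quartile scaling 0 rose in either genotype and 3 fell in WT, and with limma on log2(FPKM + 1) 0 rose in either and 2 fell in WT, while the 4 WT libraries alone gave 2 that fell. The FPKM values shifted the median of all genes by -0.11 in both genotypes, so that the log2 fold changes of Hk2 relative to it were larger than the 0.47 and 0.43 printed. The 1 added to FPKM before the log also lowers the fold of a gene as low as Hk2, at 4.51 to 7.15 FPKM. Leaving out 1 library gave 0 to 2 genes up and 1 to 3 down in WT, and 0 to 2 up in KO. The higher WT counts came without control replicate 1 (2 up, 3 down) and the count of 0 up without control replicate 2, and in KO likewise (2 and 0 up). A lone library was then assumed to vary like the others.

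Sign changes were limited to differences near 0 that passed no adjusted p in the main analysis. Under upper quartile scaling Hk1 in WT was -0.061. In the FPKM values, where Hk1 in KO passed (-0.14, adjusted p = 0.0245 by limma), it was -0.11 in WT, Slc16a3 -0.018 in WT and -0.012 in KO, Slc2a1 -0.013 in KO, and between genotypes without TGF-β Slc16a3 was -0.002. With TGF-β that difference was 0.001 by limma-voom and 0.002 with at least 10 counts in every library. FPKM interactions were -0.017 for Pfkfb3, 0.028 for Aldoc and 0.013 for Ldhb. Over single libraries left out, the ranges in WT were -0.032 to 0.07 for Hk1 and -0.15 to 0.34 for Slc16a3, and in KO -0.20 to 0.096 for Ldha and -0.064 to 0.003 for Hk1. Between genotypes without TGF-β they were -0.255 to 0.014 for Pfkp, -0.20 to 0.27 for Slc16a3 and -0.19 to 0.053 for Pfkfb3, and with TGF-β -0.07 to 0.031 for Hk1, -0.14 to 0.014 for Pfkfb3 and -0.11 to 0.097 for Slc16a3. For the interaction they were -0.038 to 0.083 for Slc2a1, -0.001 to 0.10 for Hk1, -0.025 to 0.10 for Hk2, -0.041 to 0.23 for Pfkp, -0.11 to 0.13 for Pfkfb3, -0.345 to 0.058 for Aldoc, -0.24 to 0.055 for Ldha, -0.15 to 0.054 for Ldhb and -0.27 to 0.20 for Slc16a3. The cause was not tested.

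The labels do not say that a replicate number marks a shared batch, and deviations of same-numbered libraries correlated at -0.34 and -0.35 between control and TGF-β in WT and KO, at 0.49 between the controls and at 0.25 between the TGF-β groups (across 13509 genes). With the number as a replicate block the members called were 1 up and 1 down in each genotype, as without it, and calls over all genes numbered 1616 against 1806 without it in WT, and 1369 against 1559 in KO. With the numbers crossed between control and TGF-β as a replicate block, an alternative chosen after seeing the data, there were 2105 and 1852 calls, and again 1 member up and 1 down in each genotype. The log2 fold changes of Ldhb under the block were -0.88 and -0.82. DESeq2 called 34 genes between genotypes with TGF-β against 6 by edgeR, none of them a member.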

Other observations

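Glycogen, which in the brain is held mainly by astrocytes, was read from 14 genes. In WT 1 rose and 4 fell by the adjusted p (edgeR), and in KO 2 rose and 2 fell. Pygb, the brain type glycogen phosphorylase, measured a mean of 522 CPM in untreated WT and 536 CPM in untreated KO. It fell by 0.35 in WT (adjusted p = 0.00665 by edgeR) and by 0.36 in KO (adjusted p = 0.00736 by edgeR), short of the fold threshold. Pygm, the muscle type glycogen phosphorylase, measured 3.22 and 3.28 CPM in untreated WT and 1.16 and 1.34 CPM in treated WT, a log2 change of -1.38 ± 0.24 (SE; adjusted p = 0.00407 by edgeR), and 2.30 and 2.25 CPM in untreated KO and 1.81 and 1.25 CPM in treated KO. Ppp1r3c, which brings protein phosphatase 1 to glycogen, fell by 0.62 in WT (adjusted p = 0.00464 by edgeR). Neither Pygm, with 19 to 55 counts per library, nor Ppp1r3c was called in KO, and the interaction of the list's genes passed for none of 14. The pentose phosphate pathway had 1 of 8 genes lower in WT, Pgd at -0.37, and none past the adjusted p in KO. Of 10 proliferation genes 3 fell by the adjusted p in WT (Ccnb1, Cdk1 and Mcm2, by 0.37, 0.26 and 0.36) and none in KO. In KO the same genes were lower by 0.27, 0.22 and 0.28 (adjusted p = 0.0811, 0.0515 and 0.0689 by edgeR). The median of the list was -0.12 in WT and -0.22 in KO.

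Eno1, the main enolase of most tissues, has no entry under its symbol in the count table, which lists Eno1b with 131 to 173 counts per library. In the FPKM table Eno1 measured 447 and 452 FPKM in untreated WT, 457 and 502.3 FPKM in treated WT, 539.7 and 451.5 FPKM in untreated KO, and 574 and 496 FPKM in treated KO. These levels were above those of all 10 members in every library.

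Slc16a3 was higher in the library numbered 1 than in the library numbered 2 in all 4 groups, by 1.12 to 1.38 times in CPM, and it was the only one of the 10 genes with that order in each group.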
